A study of Homo sapiens with 6 samples.

Results

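The 10 genes described here encode enzymes that make or recycle purine nucleotides. They were picked by symbol from the 60624 Ensembl genes of the deposited table, and results of these same libraries were known when they were proposed. HPRT1 and APRT are the salvage enzymes. PPAT, GART, PFAS, PAICS, ADSL and ATIC build inosine monophosphate (IMP) from small precursors, the de novo route, and IMPDH1 and IMPDH2 carry IMP on toward guanine nucleotides.

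RNA was sequenced from A549, an established human lung adenocarcinoma line (non-small cell lung cancer). All 6 samples were taken 3 days after transfection according to the labels, and 3 of them (siCEP20) received small interfering RNA (siRNA) against CEP20, a centrosomal protein gene, while 3 (siCTR) received a control siRNA. The methods list a pair of CEP20 siRNAs and do not state which was sequenced, and 1 label field gives plasmid transfection for every sample of both groups. Labels and methods also name different culture media (F-12K and DMEM). Where separate cultures are not stated, the spread between replicates may be technical.

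Cells obtain purines in 2 ways. In the de novo route the ring is assembled step by step on phosphoribosyl pyrophosphate (PRPP) with glycine, glutamine, aspartate and folate-bound one-carbon units, at a high cost in ATP. In salvage, a free base is joined to PRPP in a single step, hypoxanthine or guanine by HPRT1 and adenine by APRT. Both routes draw on the same PRPP, and loss of HPRT1 activity causes Lesch-Nyhan disease. Proliferating tumor cells usually rely on both.

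Abundance is given as TPM, a share of all transcripts that is scaled for transcript length and for the library total, so that levels can be set side by side between genes. Each library sums to 1000000 TPM and its read depth is unknown. Between 14429 and 14600 genes reached 1 TPM in the siCTR libraries and between 14851 and 14987 in the siCEP20 libraries. CEP20 itself was at 31.6 ± 3.10 TPM in siCTR and 16.2 ± 1.01 TPM in siCEP20 samples (SD, n = 3 each). Of 7 markers fixed for A549, 6 reached 1 TPM, and CDKN2A, which is deleted in this line, stayed below 1 TPM. Among 7 markers of other cell types, CD3E and COL1A2 were at 0 in every library, and COL1A1 and CD68 were the 2 that reached 1 TPM. The summed level of all 7 markers of other cell types was 20.5 to 29.0 TPM in siCTR and 46.8 to 63.0 TPM in siCEP20 libraries. Its part in the results below was not tested.

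The upstream sequences of the genes on which the results turn are shown first, since HPRT1, APRT and ADSL stood apart from the rest and PPAT and PAICS share a promoter. They come from RefSeq (GRCh38.p14), which matched 8 of the 10 members. ADSL and IMPDH2 were not matched. Capitals mark GC boxes (GGGCGG, or CCGCCC on the other strand) and E-boxes (CACGTG, the same on both strands, the core of MYC binding sites). Each is printed 5′ to 3′ on the strand named and ends before the first annotated base of the transcript, except the short stretch of ATIC.
HPRT1 (chrX:134459915-134460164, plus strand): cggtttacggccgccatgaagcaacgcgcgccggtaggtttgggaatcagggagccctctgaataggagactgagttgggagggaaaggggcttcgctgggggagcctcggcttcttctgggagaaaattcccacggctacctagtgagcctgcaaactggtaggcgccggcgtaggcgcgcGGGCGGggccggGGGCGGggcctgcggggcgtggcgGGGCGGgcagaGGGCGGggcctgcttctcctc
APRT (chr16:88811938-88812178, minus strand): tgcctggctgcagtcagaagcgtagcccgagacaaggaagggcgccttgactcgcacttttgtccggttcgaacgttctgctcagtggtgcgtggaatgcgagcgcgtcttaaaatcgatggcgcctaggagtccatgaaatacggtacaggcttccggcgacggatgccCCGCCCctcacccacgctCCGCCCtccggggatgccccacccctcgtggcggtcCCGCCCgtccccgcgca
PPAT-PAICS, all bases between both starts (chr4:56435616-56435740, plus strand, PAICS to the right): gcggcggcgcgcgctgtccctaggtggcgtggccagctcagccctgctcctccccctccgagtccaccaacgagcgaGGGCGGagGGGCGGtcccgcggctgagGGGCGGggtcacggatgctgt
ATIC, 30 bases around an E-box (chr2:215312001-215312030, plus strand): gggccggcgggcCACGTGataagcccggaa

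Within the RefSeq window (250 bases before the start to 50 after), HPRT1 held 4 GC boxes and APRT held 3. Some members with similar deposited TPM in both groups held as many, with 4 in IMPDH1 and 3 each in PPAT and PAICS. The 3 of PPAT and the 3 of PAICS are the same sites. ATIC held 2 and PFAS 1. Neither HPRT1 nor APRT held an E-box. A GC box is common, since 45.0% of all 35116 human promoter windows hold one. A link between GC boxes and the levels was not tested, and ADSL had no window to compare. PPAT and PAICS run head to head on opposite strands of chromosome 4, with annotated starts 126 bases apart, and their windows overlap. The E-box at position 41 of PAICS and the one at position -182 of PPAT, counted from each start, are the same site. ATIC held 2 E-boxes, at positions -46 and 30. E-boxes occurred in 7.26% of all windows and were in those of PPAT, PAICS and ATIC, and not in those of GART, PFAS and IMPDH1. No TATA box (TATAAA, or TTTATA on the other strand) was found in the 8 windows, against 11.5% of all windows. GART held 3 CCAAT boxes (CCAAT, or ATTGG on the other strand, in 34.6% of all windows) and 0 GC boxes. No matches of these motifs overlapped each other. The RefSeq start used here lay 599 bases from the annotated gene start in GART, 1671 in PFAS and 103 in ATIC, and within 11 bases in the other 5.

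The enzymes fell into 2 sets. HPRT1, APRT and ADSL were far lower in every siCEP20 library than in any siCTR library, while PPAT, GART, PFAS, PAICS, IMPDH1 and IMPDH2 overlapped between groups, with siCEP20 means of 92.3% to 101% of the siCTR means. ATIC lay between, with a small difference and separate groups. Because the members were proposed with this contrast known, their differences are a description and carry no p-value. In bulk RNA, fewer cells that use a gene and less of its RNA per cell cannot be told apart.

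Differences below are log2 fold changes (siCEP20 minus siCTR) on the log2(TPM + 1) scale with the standard error (SE) from a limma fit to the 14778 genes whose mean reached 1 TPM. The median of all these genes was 0.13, and dividing the libraries by median-of-ratios factors moved it to 9.4e-05. The value relative to that median is therefore also given.

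HPRT1 (ENSG00000165704, hg38 chromosome X from 134460165 to 134520513, plus strand) converts hypoxanthine and guanine to IMP and GMP. Its level was 82.6, 88.8 and 94.0 TPM in the siCTR libraries and 29.8, 29.96 and 29.5 TPM in the siCEP20 libraries. The siCEP20 values were nearly identical to each other and all lay far below the lowest siCTR value. The means were 88.4 ± 5.69 and 29.8 ± 0.235 TPM (SD, n = 3 each), so that 33.6% of the siCTR level was measured. The log2 fold change was -1.54 (SE 0.0670), or -1.67 relative to all tested genes. It ranked 27 from the lowest log2 fold change among the 14778 tested genes. No annotated gene with a mean of 1 TPM overlaps HPRT1, and its 3 pseudogene rows (HPRT1P1, HPRT1P2 and HPRT1P3) were at 0 in every library.

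APRT (ENSG00000198931, chromosome 16 from 88809339 to 88811937, minus strand) makes AMP from adenine, a base released in polyamine synthesis. It was at 334, 325 and 322 TPM in siCTR and at 214, 223 and 201 TPM in siCEP20 libraries. The groups did not overlap, and the spread within each was small beside the distance between them. APRT had 65.1% of its siCTR level left (326.9 ± 6.13 and 213 ± 11.0 TPM), a log2 fold change of -0.62 (SE 0.0546), or -0.75 relative to all tested genes.

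Both salvage transcripts were thus lower, HPRT1 more than APRT. The ratio of APRT to HPRT1 TPM within a library, which does not depend on the scale between libraries, was 4.04, 3.66 and 3.42 in siCTR and 7.17, 7.45 and 6.82 in siCEP20 libraries. Its groups were separate.

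**Figure D1:**
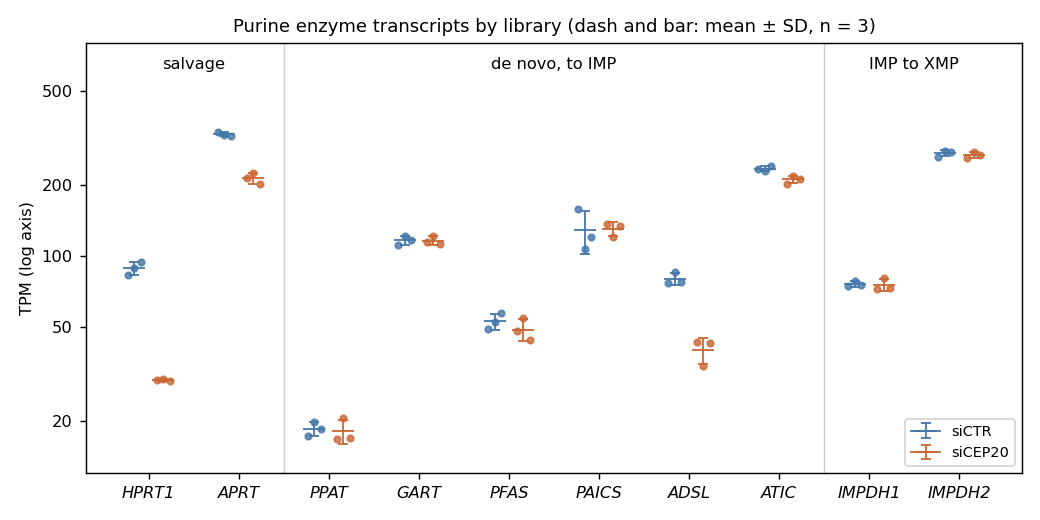
TPM of the 10 purine enzymes in the 3 siCTR and 3 siCEP20 libraries, on a log axis; points are libraries, dashes and bars the mean ± SD. HPRT1 (88.4 and 29.8 TPM), APRT (326.9 and 213 TPM) and ADSL (79.7 and 39.9 TPM) have widely separate groups, while PPAT, GART, PFAS, PAICS, IMPDH1 and IMPDH2 overlap.

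ADSL was the exception in the de novo route. Adenylosuccinate lyase cleaves a de novo intermediate and also releases AMP from adenylosuccinate, so it serves both the route to IMP and the branch from IMP to AMP. ADSL (ENSG00000239900, chromosome 22 from 40346461 to 40390463, plus strand) was at 76.3, 85.1 and 77.6 TPM in siCTR and at 43.1, 34.1 and 42.6 TPM in siCEP20 libraries. Every siCEP20 value was below every siCTR value, and 50.1% of the mean remained. Its log2 fold change came to -0.99 (SE 0.0988), or -1.12 relative to all tested genes.

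ADSL overlaps 2 expressed genes on its own strand, so its reads can be shared. The first, ENSG00000284431, starts 68 bases from the ADSL start and was at 10.1, 6.61 and 1.66 TPM in siCTR and 8.57, 15.2 and 8.93 TPM in siCEP20 libraries. These values overlapped between groups and were uneven among replicates. With both added up, the sum was 86.4, 91.7 and 79.3 TPM in siCTR and 51.7, 49.2 and 51.5 TPM in siCEP20 libraries, or 59.2% of the siCTR mean, so the groups were also separate for the sum. The other, SGSM3, was at 21.3 ± 2.90 and 16.3 ± 2.21 TPM (log2 fold change -0.37, limma, Benjamini-Hochberg adjusted p = 0.0469).

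ATIC, whose protein catalyses the last steps to IMP, was at 233, 229.7 and 239.9 TPM in siCTR and at 202, 217 and 212 TPM in siCEP20 libraries. The groups did not overlap but were close, with 89.9% of the mean left and a log2 fold change of -0.15 (SE 0.0520), or -0.29 relative to all tested genes. ATIC (ENSG00000138363) lies on chromosome 2 from 215311956 to 215349773, on the plus strand.

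With deposited TPM, the other de novo enzymes were at similar levels in both groups. PPAT (ENSG00000128059, chromosome 4 from 56393362 to 56435615), which commits PRPP to the route and is regulated by its end products, was at 17.2, 19.8 and 18.4 TPM in siCTR and 16.7, 20.5 and 16.9 TPM in siCEP20 libraries. PAICS (ENSG00000128050, chromosome 4 from 56435741 to 56464578), which adds carbon dioxide and aspartate, was at 157.9, 107 and 120 TPM and at 136, 119.7 and 134 TPM. siCTR replicate 1 held the highest PAICS value of all 6 libraries, and siCTR replicate 2 the lowest. The log2 fold change of PAICS was 0.03 (SE 0.131), or -0.10 relative to all tested genes. It turned to -0.12 with median-of-ratios scaling and was 0.19 without siCTR replicate 1 and -0.09 without siCTR replicate 2, so no direction can be given. PPAT had a log2 fold change of -0.04 (SE 0.101), or -0.17 relative to all tested genes. Its value was 0.01 without siCTR replicate 2, without siCEP20 replicate 1 and without siCEP20 replicate 3, so it has no direction either. Across the shared promoter, PAICS exceeded PPAT 5.40 to 9.18 times in siCTR and 5.85 to 8.12 times in siCEP20 libraries, and these ranges overlapped.

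GART carries out 3 separate steps in one protein. It (ENSG00000159131, chromosome 21 from 33503931 to 33543491, minus strand) was at 111, 122 and 116 TPM in siCTR and at 114, 121 and 112 TPM in siCEP20 libraries. The log2 fold change of GART was -0.01 (SE 0.0601) and was 0.03 without siCTR replicate 2, so it has no direction with deposited TPM. Relative to all tested genes it was -0.14, and after scaling GART was lower (-0.16). PFAS (ENSG00000178921, chromosome 17 from 8247618 to 8270491, plus strand), which uses glutamine as nitrogen donor, was at 48.7, 52.3 and 57.0 TPM and at 47.8, 54.3 and 43.8 TPM. Its log2 fold change was -0.12 (SE 0.0944), or -0.25 relative to all tested genes, and after scaling PFAS was lower (-0.26). In both genes the groups overlapped. Each overlaps a divergent neighbor on the opposite strand, and whether strand was used in quantification is not stated. The neighbor of GART, SON, a splicing factor gene, rose from 61.1 ± 4.75 to 74.3 ± 5.49 TPM (log2 fold change 0.28, adjusted p = 0.0236, limma), and did not pass after scaling (0.13). The neighbor of PFAS, CTC1, a telomere maintenance gene, rose from 20.7 ± 1.48 to 28.2 ± 2.05 TPM (adjusted p = 0.00473, limma). Within each of these gene pairs only the neighbor was separate between groups, and the difference between neighbors was not tested.

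IMPDH1 and IMPDH2 oxidize IMP to XMP, the rate-limiting step toward GTP and the target of mycophenolic acid. IMPDH2 (ENSG00000178035, chromosome 3 from 49024325 to 49029447, minus strand), the form induced in proliferating cells, was at 263, 279 and 275 TPM in siCTR and 260.0, 276 and 267 TPM in siCEP20 libraries. IMPDH1 (ENSG00000106348, chromosome 7 from 128392277 to 128409986, minus strand) was at 74.4, 78.1 and 75.2 TPM and at 72.4, 80.5 and 72.9 TPM. Their log2 fold changes were -0.03 (SE 0.0506) and -0.01 (SE 0.0638), or -0.16 and -0.15 relative to all tested genes. That of IMPDH1 was 0.01 without siCEP20 replicate 1, so it has no direction with deposited TPM. After scaling both were lower (-0.18 for IMPDH2 and -0.16 for IMPDH1). IMPDH2 exceeded IMPDH1 by a ratio of 3.59 ± 0.0642 in siCTR and 3.56 ± 0.119 in siCEP20 libraries, which overlapped. The annotation lists 22 pseudogenes named after HPRT1, IMPDH1, PAICS and PPAT in the table, of which 13 were at 0 throughout and none exceeded 0.577 TPM.

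**Figure D2:**
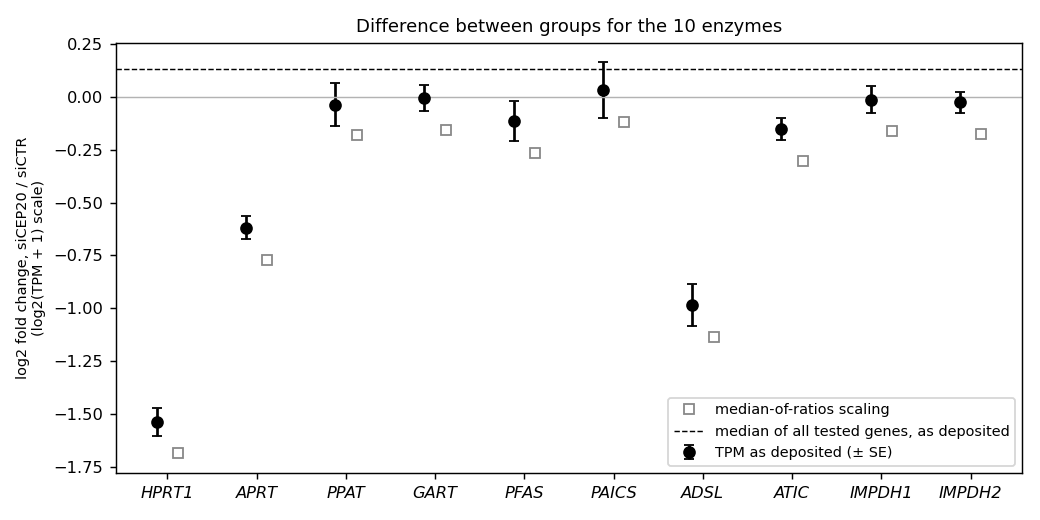
Log2 fold change (siCEP20 against siCTR, log2(TPM + 1) scale) of the 10 enzymes; filled circles and bars are the fit to the deposited TPM with its SE, open squares the value after median-of-ratios scaling, and the dashed line the median of all tested genes (0.13). HPRT1 (-1.54), ADSL (-0.99) and APRT (-0.62) lie far below the other 7, and scaling lowers every value by a similar amount.

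Of the 10 members, 4 had an adjusted p under 0.05 in the all-gene fit and were lower (HPRT1, APRT, ADSL and ATIC), and 0 were higher. ATIC passed in 4 of 13 alternatives only, and the count was 3 without any one library, without a filter, without a trend and with a replicate block. In this fit 13.2% of all tested genes were lower and 30.2% higher at that threshold. With the thresholds of the study added (fold change over 1.5 or under 0.67), 3 members were called lower, HPRT1, APRT and ADSL, against 4.61% of all tested genes called lower and 11.2% called higher. In 4 members every siCEP20 value was below every siCTR value, as it was in 17.0% of all tested genes, and in 0 members every siCEP20 value was above, as in 38.4% of all tested genes. Since the contrast was known when the members were proposed, nothing is read from these counts. After median-of-ratios scaling, 8 members had an adjusted p under 0.05 and were lower (21.6% of all tested genes were lower and 20.1% higher), PPAT and PAICS being those that did not. HPRT1, APRT and ADSL were again the members called lower, against 7.46% of all tested genes called lower and 6.05% called higher. The direction of the overall balance depends on this scaling, since 70.9% of called genes were higher with deposited TPM and 44.8% after scaling.

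Salvage and de novo enzymes were then set side by side. The median log2 fold change was -1.08 for the salvage pair, -0.08 for the 6 de novo enzymes and -0.02 for the IMP dehydrogenases, beside 0.13 for all tested genes. HPRT1 stood -1.46 from the de novo median. The distance was also -1.46 with scaling, but a factor per library largely cancels in such a difference, so nothing is read from this. In summed abundance, HPRT1 and APRT came to 416, 414 and 416 TPM in siCTR and 244, 253 and 231 TPM in siCEP20 libraries. The 6 de novo enzymes came to 644, 616 and 629.6 TPM in siCTR and 559, 567 and 562 TPM in siCEP20 libraries. Per library the salvage pair amounted to 64.6% to 67.2% of the de novo sum in siCTR and to 41.1% to 44.6% in siCEP20 libraries. Part of the lower de novo sum was ADSL, since without it the sum was 95.1% of its siCTR level, and with it 89.4%.

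Ratios within a library express the same values without any scaling between libraries, and are no separate support. ATIC exceeded HPRT1 by 2.65 ± 0.143 in siCTR and 7.07 ± 0.270 in siCEP20 libraries (SD, n = 3 each). GART exceeded HPRT1 by 1.32 ± 0.0723 and 3.89 ± 0.136. GART exceeded ADSL by 1.46 ± 0.0329 and 2.95 ± 0.532, where siCEP20 replicate 2 was highest at 3.56. ADSL stood at 0.826 to 0.959 times HPRT1 in siCTR and at 1.14 to 1.45 times HPRT1 in siCEP20 libraries. This change of order depends on how shared reads are assigned. With the overlapping ENSG00000284431 added to ADSL, the sum was 86.4, 91.7 and 79.3 TPM in siCTR libraries. That was already above HPRT1 (82.6, 88.8 and 94.0 TPM) in siCTR replicates 1 and 2.

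**Figure D3:**
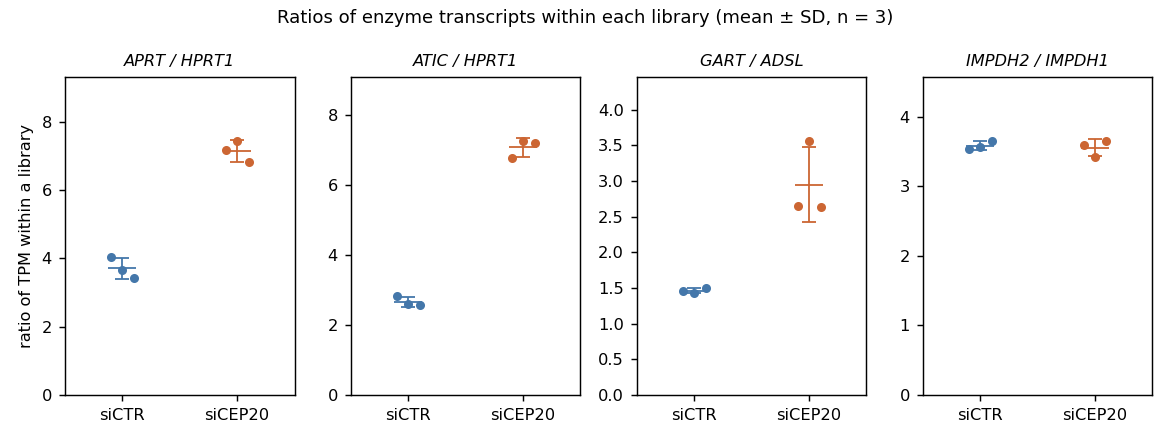
Ratios of TPM between pairs of purine enzymes within each library, with points for libraries and dashes and bars for the mean ± SD (n = 3). APRT/HPRT1 (3.71 and 7.15), ATIC/HPRT1 (2.65 and 7.07) and GART/ADSL (1.46 and 2.95) are separate between siCTR and siCEP20, and IMPDH2/IMPDH1 (3.59 and 3.56) overlaps.

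The order of the members by level changed accordingly. In siCTR libraries it ran from APRT (326.9 TPM) through IMPDH2 (272), ATIC (234), PAICS (128), GART (116), HPRT1 (88.4), ADSL (79.7), IMPDH1 (75.9) and PFAS (52.7) to PPAT (18.5 TPM). Neighbors whose ranges overlapped were PAICS and GART, HPRT1 and ADSL, and ADSL and IMPDH1. In siCEP20 libraries IMPDH2 was first (267 TPM), APRT (213) and ATIC (210) overlapped, PAICS and GART overlapped, and ADSL (39.9) and HPRT1 (29.8) had moved below PFAS (48.6 TPM). PPAT was last in both groups.

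The genes whose pattern over the 6 libraries was nearest to that of HPRT1 were TOMM7, KRT83, IFI27L2, KRT85 and S100A4. Likeness was the Euclidean distance between log2(TPM + 1) values centered on each gene's mean, over 12268 tested protein-coding genes, and these 5 had distances of 0.304 to 0.324. TOMM7, a subunit of the mitochondrial import pore, was at 211 ± 10.7 and 79.0 ± 5.49 TPM. S100A4, a calcium-binding protein gene, was at 1907 ± 63.7 and 754 ± 40.0 TPM. Among the members ADSL was nearest to HPRT1 (distance 0.746, rank 85) and APRT next (1.14, rank 370), and the other members had distances of 1.70 to 1.99. Such a distance largely reflects how near the log2 fold changes are. The order of the members therefore repeats the contrast known beforehand, and no shared regulation is read from it.

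With deposited TPM, the other enzymes around these steps moved in both directions. The counts below stand beside 30.2% of all tested genes higher and 13.2% lower, or 20.1% and 21.6% after scaling. Of 7 genes for PRPP supply and the remaining steps to AMP and GMP, 1 was higher and 2 were lower at an adjusted p under 0.05, 4 did not pass, and the median log2 fold change was -0.06. After scaling, 0 of them were higher and 4 were lower. PRPS2, a PRPP synthetase, fell from 26.1 ± 2.42 to 13.2 ± 1.14 TPM (log2 fold change -0.93, adjusted p = 0.000255, limma). PRPSAP2, a protein associated with that synthetase, fell from 82.7 ± 12.1 to 56.8 ± 4.47 TPM (-0.53, adjusted p = 0.00665, limma). PRPS1, the more abundant synthetase, was at 97.0 ± 1.94 and 93.2 ± 2.98 TPM and did not pass, although it was lower and passed after scaling. GMPS, which makes GMP from XMP, rose from 45.4 ± 15.1 to 69.8 ± 0.931 TPM (0.67, adjusted p = 0.0378, limma). Its siCTR values were scattered (57.8, 28.6 and 49.9 TPM), and the log2 fold change was 0.37 without siCTR replicate 2 and 0.87 without siCTR replicate 1. Its adjusted p was 0.118 after scaling, 0.159 without a filter, 0.0687 without a trend and 0.0772 to 0.0913 without any one siCEP20 library (limma).

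Purine salvage and interconversion beyond HPRT1 and APRT was measured with 34 genes, of which 31 were tested, 6 were higher, 10 were lower and 15 did not pass (median -0.06). The 2 with the largest decreases were NME3 and ITPA. NME3, a nucleoside diphosphate kinase gene, fell from 46.4 ± 4.58 to 24.8 ± 2.04 TPM (-0.87, adjusted p = 0.000294, limma). ITPA, which removes inosine triphosphate from the nucleotide pool, fell from 146 ± 4.71 to 83.0 ± 6.86 TPM (-0.81, adjusted p = 0.000114, limma). AK1, adenylate kinase of the cytosol, rose from 23.7 ± 3.29 to 34.5 ± 2.93 TPM (0.53, adjusted p = 0.00625, limma). XDH, which degrades hypoxanthine and xanthine to uric acid, was low and rose from 2.15 ± 0.321 to 3.38 ± 0.601 TPM (0.47, adjusted p = 0.0425, limma) and did not pass without any one of 5 of the 6 libraries, after scaling, without a filter or with a replicate block (adjusted p = 0.0617). After scaling, 3 of these genes were higher and 14 lower.

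Folate enzymes carry the one-carbon units that the de novo route consumes. Of 18 such genes with serine synthesis, 17 were tested, 2 were higher, 7 were lower and 8 did not pass, with a median of -0.12. PHGDH, the first enzyme of serine synthesis, fell from 108.9 ± 9.84 to 63.6 ± 2.12 TPM (-0.76, adjusted p = 0.000211, limma), and MTHFS fell from 62.0 ± 2.36 to 41.1 ± 3.04 TPM (-0.58, adjusted p = 0.000552, limma). SHMT1 (62.2 ± 2.34 to 75.8 ± 4.02 TPM, 0.28, adjusted p = 0.0096, limma) and MTHFD1L (52.3 ± 2.54 to 63.6 ± 1.05 TPM, 0.28, adjusted p = 0.00791, limma) rose with deposited TPM, and neither passed after scaling. The scaled counts were 0 higher and 10 lower.

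In the parallel pyrimidine pathway, 18 genes were tested, 4 were higher, 5 were lower and 9 did not pass (median -0.01). CTPS2, a CTP synthetase, rose from 10.1 ± 1.09 to 14.6 ± 0.594 TPM (0.49), and CMPK1, which phosphorylates UMP and CMP, rose from 70.1 ± 4.96 to 93.5 ± 2.45 TPM (0.41). TK2, mitochondrial thymidine kinase, fell from 29.8 ± 2.12 to 20.5 ± 2.03 TPM (-0.52), and DTYMK, thymidylate kinase, fell from 128.7 ± 7.70 to 95.3 ± 4.76 TPM (-0.43). These 4 had adjusted p-values of 0.00146 to 0.00485 (limma). Of 4 genes for deoxynucleotide supply, RRM1, the large subunit of ribonucleotide reductase, rose from 44.7 ± 1.41 to 56.0 ± 1.06 TPM (0.32, adjusted p = 0.00346, limma), and RRM2B fell from 25.8 ± 1.10 to 22.1 ± 0.334 TPM (-0.22, adjusted p = 0.0358, limma), which did not pass without any one of 5 of the 6 libraries or with a replicate block (adjusted p = 0.0546).

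**Figure D4:**
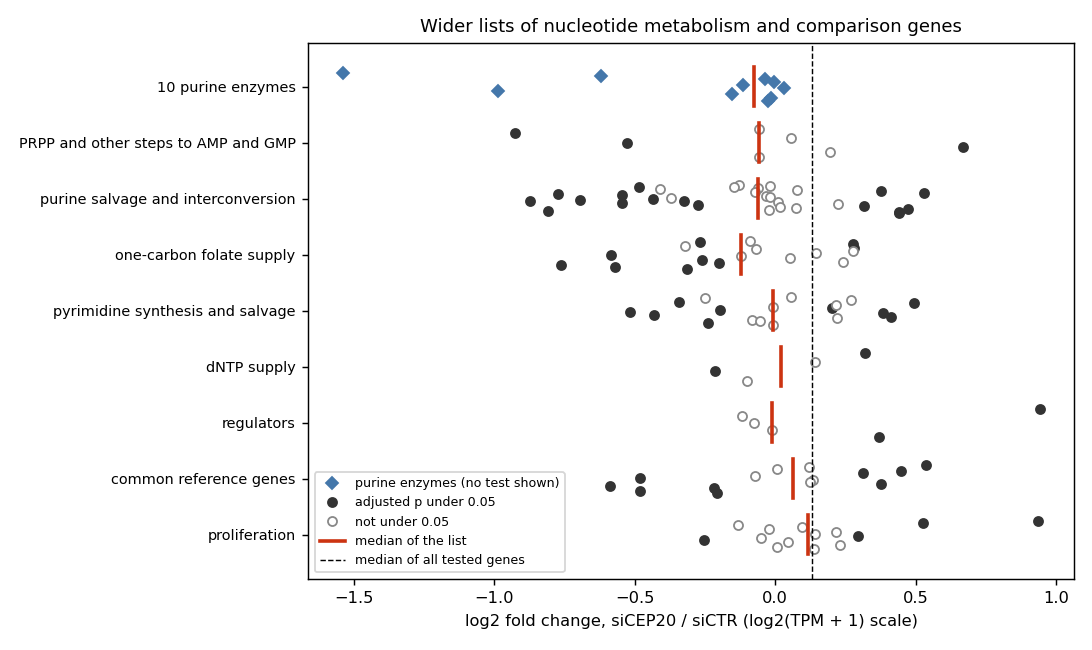
Log2 fold changes of the 10 purine enzymes (diamonds) and of every tested gene in 8 wider lists (circles, filled where the adjusted p was under 0.05); red bars are list medians and the dashed line is the median of all tested genes (0.13). HPRT1 at -1.54 lies below every gene of the other lists, whose members spread to both sides.

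Of 5 regulators listed because they bind or induce purine genes, 2 were higher and 3 did not pass. MYC, a transcription factor that binds E-boxes of many purine enzyme genes, rose 1.92-fold, from 113.9 ± 17.7 to 219 ± 24.6 TPM (0.94, adjusted p = 0.000667, limma). E2F1 rose from 23.6 ± 2.39 to 30.8 ± 2.42 TPM (0.37, adjusted p = 0.0163, limma) and did not pass after scaling, without a filter or without siCEP20 replicate 2 or 3. ATF4, which induces folate and serine enzymes, was at 681 ± 137 and 640.3 ± 77.8 TPM, with overlapping groups. PPAT, PAICS and ATIC, whose promoter windows hold an E-box, had log2 fold changes of -0.04, 0.03 and -0.15. The site is the same in PPAT and PAICS. GART, PFAS and IMPDH1, whose windows hold none, had -0.01, -0.12 and -0.01. HPRT1 and APRT, also without an E-box, had -1.54 and -0.62. A link between MYC and these values was not tested.

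HPRT1 is itself in common use as a reference gene for quantitative PCR. Of 14 other reference genes, 4 were higher, 5 were lower and 5 did not pass, with a median of 0.06. ACTB rose from 3918 ± 497 to 5663 ± 446 TPM (0.54, adjusted p = 0.00296, limma) and TBP from 15.0 ± 0.445 to 20.9 ± 2.06 TPM (0.45, adjusted p = 0.00491, limma). YWHAZ fell from 524 ± 32.0 to 376 ± 24.7 TPM (-0.48, adjusted p = 0.000924, limma). None of the 14 had a log2 fold change as low as that of HPRT1.

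Purine demand is tied to growth, so 14 proliferation genes were also listed, of which 3 were higher, 1 was lower and 10 did not pass (median 0.12, close to the 0.13 of all tested genes). After scaling, 2 of them were higher and 4 were lower. These are transcript levels and do not measure growth, and the paper reports reduced proliferation of A549 cells after CEP20 knockdown. MKI67 rose from 23.6 ± 2.68 to 45.8 ± 3.46 TPM (0.93, adjusted p = 0.000261, limma), TOP2A rose from 78.5 ± 7.77 to 113.4 ± 10.3 TPM (0.53, adjusted p = 0.00277, limma), and CCNB1 fell from 151 ± 8.25 to 126.6 ± 5.19 TPM (-0.25, adjusted p = 0.0122, limma). Of the genes named from these lists, AK1, MTHFS and TOP2A overlap an expressed gene on the same strand and NME3 and SHMT1 on the opposite strand, so their reads can be shared.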

How the data were processed

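According to the submitters' processing notes, the authors trimmed reads with fastp 0.20.1, aligned them to hg38 with HISAT2 2.1.0 and quantified genes with StringTie 2.0. They deposited TPM for 60624 Ensembl genes in 6 libraries. The annotation release and the use of strand are not given in the sources used here. TPM keeps no read count, so depth is unknown, the DESeq2 test of the study could not be run and precision rests on 3 replicates a group.

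Genes were named and placed with GENCODE release 44 on hg38 (60370 rows matched). The 14778 genes whose mean reached 1 TPM were tested on log2(TPM + 1) with limma 3.58.1 in R 4.3.3 (eBayes with a trend, no rescaling), with Benjamini-Hochberg adjustment. A gene passed at an adjusted p under 0.05 and was called at a fold change over 1.5 or under 0.67 as well. Promoters came from RefSeq (GRCh38.p14). Python 3.11.15, numpy 2.4.6, pandas 2.3.3 and matplotlib 3.10.9 were used. The fit was tested on simulated data.

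The members and lists were chosen with earlier results of these data known. The wider lists were written from general knowledge, and up to 2 members with the highest and 2 with the lowest log2 fold change among those passing were named, besides MYC and ATF4. PRPS1 was added after its values were seen, and 1 gene that the rule names is not reported here.

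Replicate numbers were not treated as pairs in the main fit. Alternatives covered median-of-ratios scaling, a pseudocount of 0.1, a minimum of 5 TPM or none, eBayes without a trend, a replicate block, protein-coding genes alone and each library left out.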

Additional observations from a re-analysis of the deposited data

How the results depend on the processing

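HPRT1, APRT and ADSL were called lower in all 13 alternatives. ATIC passed in 4 of them. Median-of-ratios scaling moved most values, with HPRT1 at -1.69 and the de novo median at -0.22. It left 2963 genes higher and 3185 lower (894 and 1103 called), 8 members lower, and counts (higher, lower) of 0 and 4 for PRPP and other steps, 3 higher for salvage and interconversion, 0 higher for folate, 1 and 1 for regulators, 2 higher for reference genes and 4 lower for proliferation. Without a filter the counts were 0 higher for PRPP, 3 higher for salvage, 3 lower for pyrimidine and 1 higher for regulators. eBayes without a trend gave 0 higher for PRPP, 3 lower for pyrimidine and 3 lower for reference genes. With 1 library left out, HPRT1 ranged from -1.59 to -1.49, the de novo median from -0.15 to -0.020, and counts from 0 to 1 (PRPP, higher), 3 to 5 (salvage, higher), 3 to 5 (pyrimidine, lower), 0 to 1 (deoxynucleotide supply, lower), 1 to 2 (regulators, higher) and 1 to 2 (proliferation, lower). ATF4 ranged from -0.25 to 0.03 with 1 library left out and turned to 0.00227 and 0.0269 without siCTR replicates 1 and 3. The cause of these shifts was not tested beyond the scaling itself.

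Same-numbered samples had correlations of 0.157, -0.0614 and -0.0623 in their deviations, and 1 of 3 siCEP20 libraries correlated best with its own number. These values gave no sign of pairing, but with 3 samples a group they cannot exclude it. A replicate block gave 4274 genes higher and 1857 lower, 3 members lower and 0 lower for deoxynucleotide supply.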

Other observations

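CEP20 itself appeared higher in siCEP20 libraries with HPRT1 as the reference gene, and with none of the 14 others. The comparison was made after the values were seen. It follows from the levels left in siCEP20 libraries, 33.6% of the siCTR mean for HPRT1 and 51.4% for CEP20. CEP20 TPM divided by HPRT1 TPM within each library was 143% to 164% of the siCTR mean in the siCEP20 libraries and 96.3% to 104.6% in the siCTR libraries. Divided by each of the 14 other reference genes, the siCEP20 mean was below the siCTR mean, and the groups were separate for all 14. With ACTB it was 35.6% of the siCTR mean, and with GAPDH it was 47.3 ± 2.34% (SD, n = 3).

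MTAP, which recycles adenine from methylthioadenosine and thereby feeds APRT, is named here after its values were seen. It was at 12.5, 9.75 and 20.4 TPM in siCTR and at 11.5, 8.91 and 9.67 TPM in siCEP20 libraries. The groups overlapped, and CDKN2A, its neighbor on chromosome 9, was at 0 in 3 of the 6 libraries and at most at 0.608 TPM.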
